A study of Mus musculus with 6 samples.

Results

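The genes described here are 10 that act on the fabric of the extracellular matrix: the matrix metalloproteinase (MMP) genes Mmp2, Mmp9, Mmp14 and Mmp15, the tissue inhibitor of metalloproteinase (TIMP) genes Timp1, Timp2, Timp3 and Timp4, and the lysyl oxidase genes Lox and Loxl1. They were picked by gene symbol, with earlier results of these data known, and all 10 had a row among the 16759 genes of the expression table. Hind leg muscle was taken from male C57BL/6J mice that were 8 weeks old at the start. In the control (Con) group 3 mice did no treadmill running, and in the exercise (EX) group 3 mice ran on a treadmill for 60 min per day on 5 days per week for 6 weeks, over 22 km in all. EX mice were killed 24 h after the last session. Muscle was dissected after perfusion with saline and removal of the fat between the muscles, and the muscle or muscles taken were not specified further. Each mouse gave 1 library of total RNA, so the values mix muscle fibres with the connective tissue, vessels and nerves among them.

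MMPs are zinc-dependent proteases that are made as inactive precursors and cut collagens and other matrix proteins outside the cell. TIMPs bind their active sites and block them, and TIMP2 has a second role, since together with MMP14 at the cell surface it brings the MMP2 precursor to be activated. Lysyl oxidases act the other way, oxidizing lysines in collagen and elastin so that the fibres become crosslinked. In skeletal muscle these enzymes and inhibitors are known for their part in the growth of capillaries, the repair of fibres and the upkeep of the connective tissue that carries force.

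The promoter windows of Mmp14, Timp3 and Timp4 are shown because Mmp14 encodes the enzyme at the centre of that activation step and because Timp3 and Timp4 were the member pair with the most similar profiles over the libraries. They come from RefSeq (GRCm38.p6), and in the set of windows used here 6 of the 10 genes had one of 300 bases, 250 before and 50 after the start of transcription. Bases are given 5′ to 3′ on the strand of the gene, up to the first annotated exon, with matches to a GC box (GGGCGG on either strand) in capitals.
Mmp14 (chr14:54431348-54431597, plus strand): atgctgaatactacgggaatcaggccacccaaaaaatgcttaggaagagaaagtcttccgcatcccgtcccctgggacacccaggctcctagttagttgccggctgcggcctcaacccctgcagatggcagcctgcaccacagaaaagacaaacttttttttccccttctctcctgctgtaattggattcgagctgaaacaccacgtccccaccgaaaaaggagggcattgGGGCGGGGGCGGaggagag
Timp3 (chr10:86300162-86300371, plus strand): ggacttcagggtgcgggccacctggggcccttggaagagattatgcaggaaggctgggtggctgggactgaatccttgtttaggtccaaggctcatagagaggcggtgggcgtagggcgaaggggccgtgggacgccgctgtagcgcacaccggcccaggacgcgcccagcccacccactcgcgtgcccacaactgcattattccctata
Timp4 (chr6:115252206-115252455, minus strand): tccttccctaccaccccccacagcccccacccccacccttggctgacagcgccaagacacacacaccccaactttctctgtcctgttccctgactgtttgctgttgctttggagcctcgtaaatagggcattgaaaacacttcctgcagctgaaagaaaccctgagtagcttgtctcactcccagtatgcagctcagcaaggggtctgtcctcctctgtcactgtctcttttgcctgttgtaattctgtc
The Mmp14 window held 2 GC boxes side by side, beginning 19 and 13 bases before the start. In Timp3 the 2 GC boxes began 15 bases before and 13 bases after the start, past the stretch shown. The Timp4 window held none of the 5 motifs searched on both strands, which were the GC box, the AP-1 site (TGANTCA), the TATA box (TATAAA), the core of the cyclic AMP element (TGACGT) and the E box (CACGTG). A GC box was also found in Timp2, 37 bases before the start, in a window that begins inside an annotated exon and is not shown for that reason, in Mmp15 at 106 bases and in Timp1 at 8 bases, and Timp1 held the cyclic AMP core at 84 bases. Over 32851 RefSeq windows of this length, 35.7% held a GC box, 7.81% an AP-1 site, 13.6% a TATA box, 7.51% the cyclic AMP core and 7.15% an E box, so a GC box in a window is common. GC content was 67.0% in the Timp3 window, 68.7% in Timp2, 66.0% in Mmp15, 56.0% in Mmp14, 55.0% in Timp1 and 53.3% in Timp4, beside a median of 52.7%. Mmp2, Mmp9, Lox and Loxl1 were not matched in that set.

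Libraries held between 13845362 and 16240431 counts, and the muscle fibre markers (Acta1, Ckm and 5 others) summed to 178194 to 184551 CPM (counts scaled to a library of fixed size) in Con and 194475 to 203168 CPM in EX, so transcripts of muscle fibres were abundant in every library. Values below are CPM after scaling by TMM, a factor that evens out differences in RNA composition. Calls come from the edgeR quasi-likelihood test over the 10883 genes whose FPKM averaged 1 or more, with Benjamini-Hochberg adjusted p below 0.05. It called 991 genes higher and 958 lower in EX, while limma on TPM called 340 higher and 1684 lower. Mmp9 and Timp1 lay below that expression limit and were read from the same fit without it. Since 3 mice against 3 allow no two-sided exact permutation p below 0.1, that test is given only for ratios, shares and the genes with few counts.

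Of the 10 genes, 7 changed, 5 of them higher and 2 lower in EX, where 17.9% of all genes tested changed, 9.11% higher and 8.8% lower. The same 7 genes had groups that did not overlap, against 33.7% of all genes tested. Mmp2, Mmp14, Mmp15, Timp2 and Lox rose, Timp3 and Timp4 fell, and Mmp9, Timp1 and Loxl1 did not pass the test. The 8 genes above the expression limit had a median log2 fold change of 0.23, beside -0.00 for all genes tested. That median of all genes depends on the scaling and was -0.09 with limma on TPM and -0.06 on FPKM (pseudocount 0.1), so values on those scales carry this shift. The changes were modest, from a rise of 57.2% for Lox to a fall of 13.2% for Timp3.

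**Figure D1:**
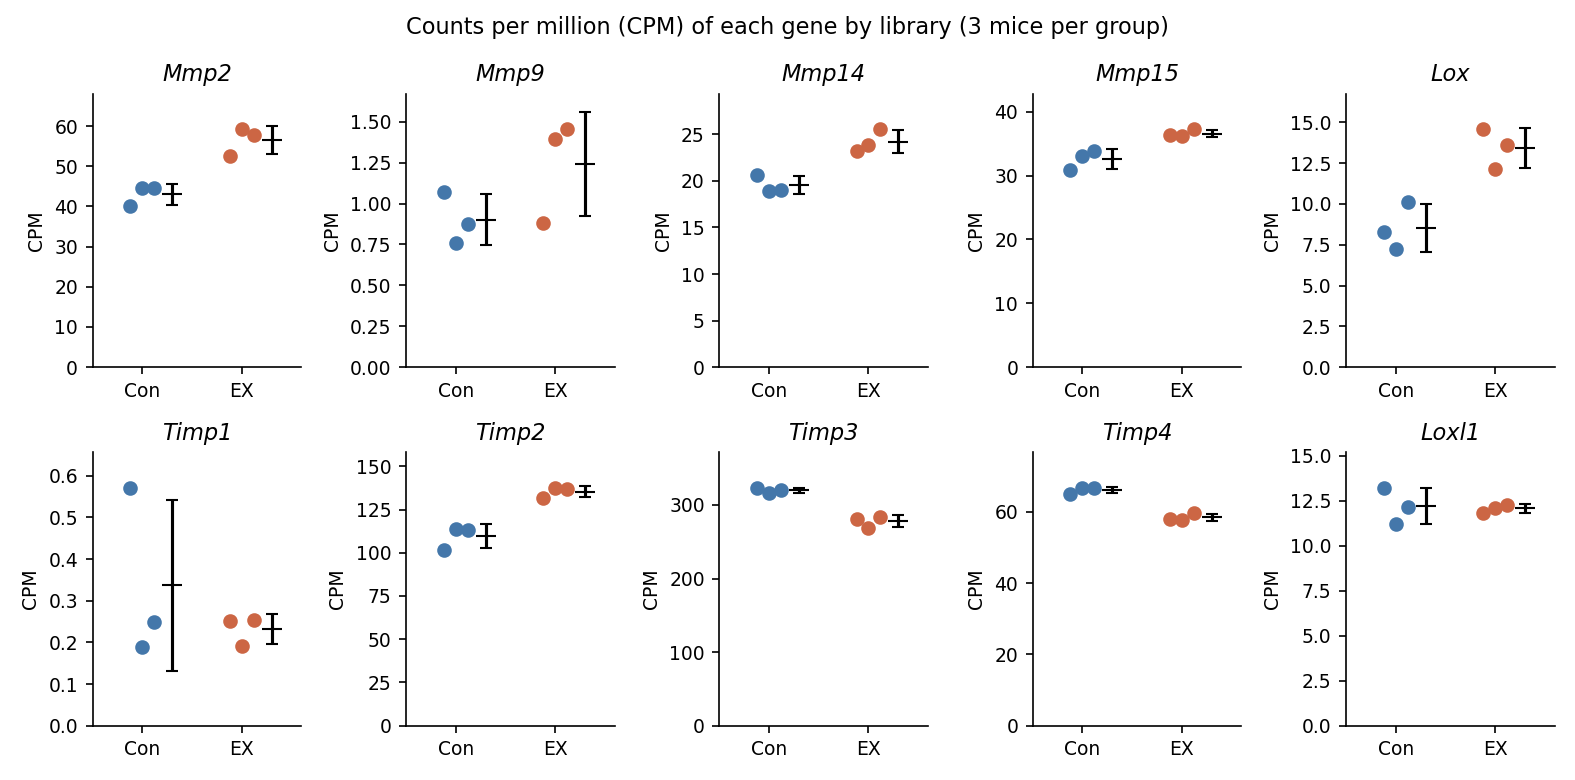
CPM of each gene (vertical axes, starting at 0) in the 3 Con and 3 EX libraries, 1 point per mouse, with the mean and SD of each group as a black bar. The groups are apart for Mmp2, Mmp14, Mmp15, Lox and Timp2, which are higher in EX, and for Timp3 and Timp4, which are lower, and they overlap for Mmp9, Timp1 and Loxl1.

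Measured per length of transcript, 3 of the 4 inhibitors were the most abundant of the set, and Timp1 was among the lowest. Timp3 led with a mean of 98.8 TPM (a level corrected for transcript length and library size) and stood at rank 1017 of all genes, followed by Timp2 with 53.2 TPM and Timp4 with 34.2 TPM. Mmp2, the gelatinase that cuts denatured and basement membrane collagen, was the most abundant protease at 25.9 TPM. Mmp15 at 12.4 TPM and Mmp14 at 9.0 TPM came next, both membrane-anchored proteases. The crosslinking enzymes were lower, with Loxl1 at 5.78 TPM and Lox at 3.65 TPM, and Timp1 at 0.745 TPM and Mmp9 at 0.537 TPM were close to the floor. Each gene in this order was above the next in all 6 libraries, except that Timp1 was above Mmp9 in 4 of 6. The closest of the separated neighbours were Timp4 and Mmp2, whose lowest and highest values over all libraries were 30.1 TPM for Timp4 and 29.4 TPM for Mmp2.

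Mmp2 had the lowest adjusted p of the 4 proteases. Its level was 40.0, 44.5 and 44.5 CPM in the Con libraries and 52.5, 59.2 and 57.7 CPM in the EX libraries. All EX values were above all Con values, and the gap between the groups was wider than the spread inside either. Means were 43.0 ± 2.58 CPM in Con and 56.5 ± 3.52 CPM in EX (SD, n = 3 each), which gave a log2 fold change of 0.39 (SE 0.06, 95% interval 0.28 to 0.51, adjusted p = 8.3e-06). These values rest on 560 to 712 counts per Con library and 836 to 934 per EX library.

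Mmp14, the membrane protease that activates the MMP2 precursor and also cuts fibrillar collagen, had 20.6, 18.9 and 19.1 CPM in Con and 23.2, 23.8 and 25.6 CPM in EX. The groups did not overlap, and EX replicate 3 was the highest. Means of 19.5 ± 0.954 and 24.2 ± 1.22 CPM gave a log2 fold change of 0.31 (SE 0.07, interval 0.17 to 0.45, adjusted p = 2.0e-03). On TPM with limma the change of Mmp14 was 0.21 and missed the threshold (adjusted p = 0.058).

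Mmp15, the close relative of Mmp14 at the cell surface, changed least of the proteases that rose. Its values were 30.8, 33.1 and 33.9 CPM in Con and 36.3, 36.1 and 37.3 CPM in EX. The groups lay apart by a narrow margin, with means of 32.6 ± 1.59 and 36.6 ± 0.596 CPM. The log2 fold change was 0.16 (SE 0.06, interval 0.05 to 0.28, adjusted p = 0.046), and this call held in 3 of 15 alternative analyses. With 1 library left out it was kept without Con replicate 3 (adjusted p = 0.043) and lost without Con replicate 1 (0.175), Con replicate 2 (0.093), EX replicate 1 (0.083), EX replicate 2 (0.085) or EX replicate 3 (0.152). Its groups overlapped in TPM, at 11.4, 12.3 and 12.6 in Con and 12.8, 12.4 and 13.0 in EX.

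Mmp9, the second gelatinase, which is typical of neutrophils, macrophages and osteoclasts, was barely present. Its counts were 15, 12 and 14 in Con and 14, 22 and 23 in EX, or 0.760 to 1.07 CPM against 0.880 to 1.45 CPM. EX replicate 1 lay among the Con libraries, and the groups overlapped. The log2 fold change was 0.47 with a wide interval of -0.14 to 1.07 (adjusted p = 0.367 in the fit without an expression limit, in which 12% of genes were called, 6.08% higher and 5.96% lower, and 26.8% had groups apart). Pooled by group, 41 counts stood against 59, a ratio of 1.33 after scaling by depth, with an exact binomial 95% interval of 0.881 to 2.04 that covers counting error only. The exact permutation test of its CPM gave p = 0.2.

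Among the inhibitors, Timp2 went up while Timp3 and Timp4 went down. Timp2, which both blocks MMP2 and helps to activate it, had 102, 114 and 113 CPM in Con and 132, 138 and 137 CPM in EX. The groups were well apart, and Con replicate 1 was the lowest library. The Con mean of 109.7 ± 6.80 CPM compared with 135 ± 3.28 CPM in EX, and the log2 fold change was 0.30 (SE 0.05, interval 0.21 to 0.40, adjusted p = 1.5e-05).

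Timp3 is the inhibitor that stays bound to the matrix and also blocks several ADAM and ADAMTS proteases. Its values were 323, 316 and 320.2 CPM in Con and 281, 269 and 284 CPM in EX. All EX libraries were below all Con libraries, and the Con libraries differed from each other by little. The Con mean was 320.0 ± 3.51 CPM and the EX mean 278 ± 8.07 CPM, so that the log2 fold change was -0.20 (SE 0.04, interval -0.28 to -0.13, adjusted p = 1.6e-04).

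Timp4, the inhibitor known from heart and skeletal muscle, had 65.0, 66.6 and 66.8 CPM in Con and 58.1, 57.6 and 59.6 CPM in EX. Its groups did not overlap, and the fall was of nearly the same size as that of Timp3. Means of 66.1 ± 0.967 and 58.4 ± 1.07 CPM gave a log2 fold change of -0.18 (SE 0.05, interval -0.27 to -0.08, adjusted p = 7.0e-03).

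Timp1, the inhibitor that many cells induce on injury, was almost undetected, with 8, 3 and 4 counts in Con and 4, 3 and 4 counts in EX. The groups overlapped, and 1 Con library held the highest value. Pooled, 15 counts stood against 11, a depth-scaled ratio of 0.680 with an exact binomial interval of 0.282 to 1.58, and the exact permutation test of its CPM gave p = 0.9. Its log2 fold change of -0.49 (interval -1.77 to 0.80, adjusted p = 0.677) turned to 0.07 without Con replicate 1. Timp1 also lies inside Syn1 on the opposite strand, as Timp3 lies inside Syn3 and Timp4 inside Syn2 in the GENCODE annotation (GRCm38). Timp3 shares 1733 exon bases with Syn3 and Timp4 shares 90 with Syn2, while Timp1 shares 0 with Syn1. Timp4 also lies inside Gm17482 on the opposite strand, with 0 shared exon bases, which was not analysed here. Syn1, Syn3 and Syn2 had at most 5, 13 and 22 counts in any library. Timp2 overlaps Cep295nl, which had at most 5 counts, and Lox shares 30 exon bases with an antisense gene that was not analysed here. Whether the counting used strand is not given in the sources used here, and the effect of these overlaps on the values was not tested.

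Lox, which crosslinks collagen and elastin, showed the largest fold change among the genes that passed the test. Its level was 8.29, 7.22 and 10.1 CPM in Con and 14.6, 12.1 and 13.6 CPM in EX. The groups did not overlap, though the spread was wider than for the more abundant genes. Means were 8.54 ± 1.46 and 13.4 ± 1.24 CPM, and the log2 fold change was 0.65 (SE 0.11, interval 0.42 to 0.88, adjusted p = 9.0e-05). It rests on 114 to 162 counts per Con library and 191 to 232 per EX library.

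Loxl1, the relative of Lox that is tied to elastic fibres, had 13.2, 11.2 and 12.1 CPM in Con and 11.8, 12.1 and 12.3 CPM in EX. The EX values lay inside the Con range. Means were 12.2 ± 1.0 and 12.1 ± 0.233 CPM, with a log2 fold change of -0.01 (SE 0.09, interval -0.20 to 0.18, adjusted p = 0.955). Changes inside that interval cannot be told from none here.

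**Figure D2:**
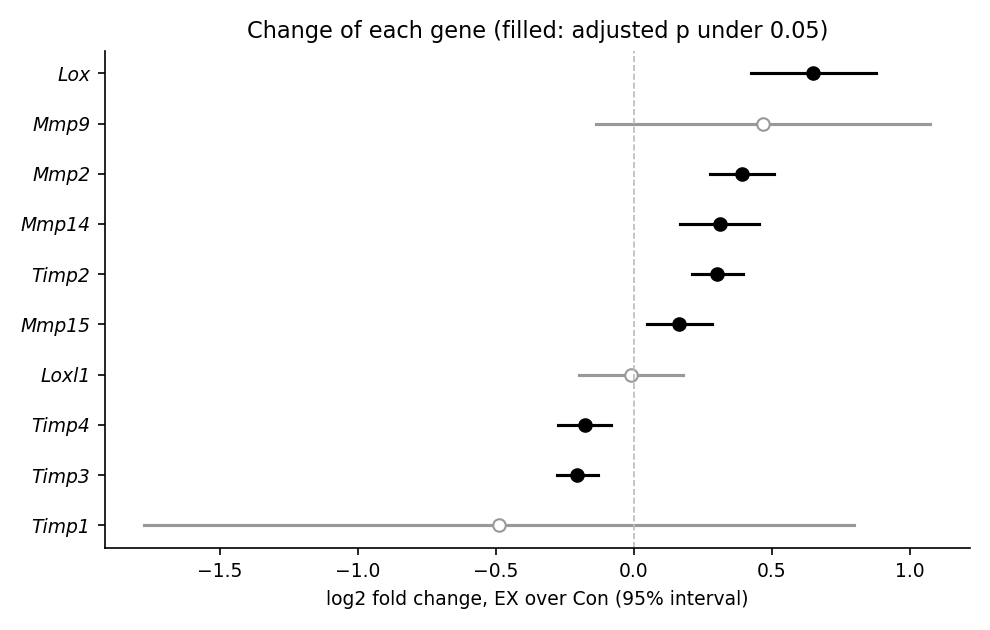
Log2 fold change of EX over Con (horizontal axis) with its 95% interval for each of the 10 genes, filled and black where the adjusted p was under 0.05. Lox lies farthest to the right of the genes that passed the test, Timp3 and Timp4 lie left of 0, and the intervals of Timp1 and Mmp9 are the widest.

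Levels of several genes were then set against each other inside each library, in TPM, where library scaling cancels. The ratio of summed MMP to summed TIMP transcripts was 0.218, 0.227 and 0.227 in Con and 0.277, 0.302 and 0.294 in EX. It was higher in each EX mouse than in any Con mouse, with means of 0.224 ± 0.0052 and 0.291 ± 0.0127 and a log2 difference of 0.38 (two-sided exact permutation p = 0.1, the smallest this design allows). Numerator and denominator both moved, the summed MMP level from between 42.1 and 45.4 TPM to between 49.6 and 53.3 TPM, and the summed TIMP level from between 193 and 199.8 TPM to between 172 and 181 TPM. The fall of the summed TIMP level was -0.15 on the log2 scale in TPM and -0.06 in TMM-scaled CPM per kilobase, and the rise of the summed MMP level was 0.23 and 0.32, with groups apart on each scale. These RNA ratios count transcripts and say nothing of how much enzyme was active.

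The make-up of the inhibitor pool also differed between the groups. Timp3 made up 56.7%, 54.7% and 54.9% of the summed TIMP level in Con and 50.8%, 49.0% and 50.1% in EX. Timp2 made up 23.6%, 26.0% and 25.7% in Con and 31.4%, 33.2% and 32.0% in EX. The share of Timp4 went from 19.0% ± 0.0879 to 17.5% ± 0.0314. Shares of a pool sum to a fixed total, so a larger share of Timp2 and smaller shares of the others are not separate observations. Within the protease pool Mmp2 held 52.6% ± 1.45 in Con and 55.4% ± 1.25 in EX, Mmp15 held 27.4% ± 0.414 and 24.7% ± 1.02, and the shares of Mmp14 and Mmp9 overlapped between groups. The shares of Timp2, Timp3, Timp4, Mmp2 and Mmp15 did not overlap (exact permutation p = 0.1 each).

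Another 11 ratios between single genes were formed after the values had been seen and are given as description. The ratio of Timp2 to Timp3 was 0.416, 0.475 and 0.468 in Con and 0.619, 0.677 and 0.638 in EX, a log2 difference of 0.51. Mmp2 to Timp3 differed by 0.60, Timp2 to Timp4 by 0.48 and Mmp2 to Timp2 by 0.09, all with groups apart. Mmp14 to Timp2, the pair that acts with the MMP2 precursor, overlapped with a log2 difference of 0.00, as did Mmp2 to Mmp14 with 0.09 and Timp4 to Timp3 with 0.03. Lox to Loxl1 was 0.432, 0.456 and 0.587 in the Con mice and 0.872, 0.707 and 0.771 in the EX mice, a log2 difference of 0.68. Over the 12 ratios, those with groups apart had an exact permutation p of 0.1 and an adjusted p of 0.15, so none passed 0.05.

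**Figure D3:**
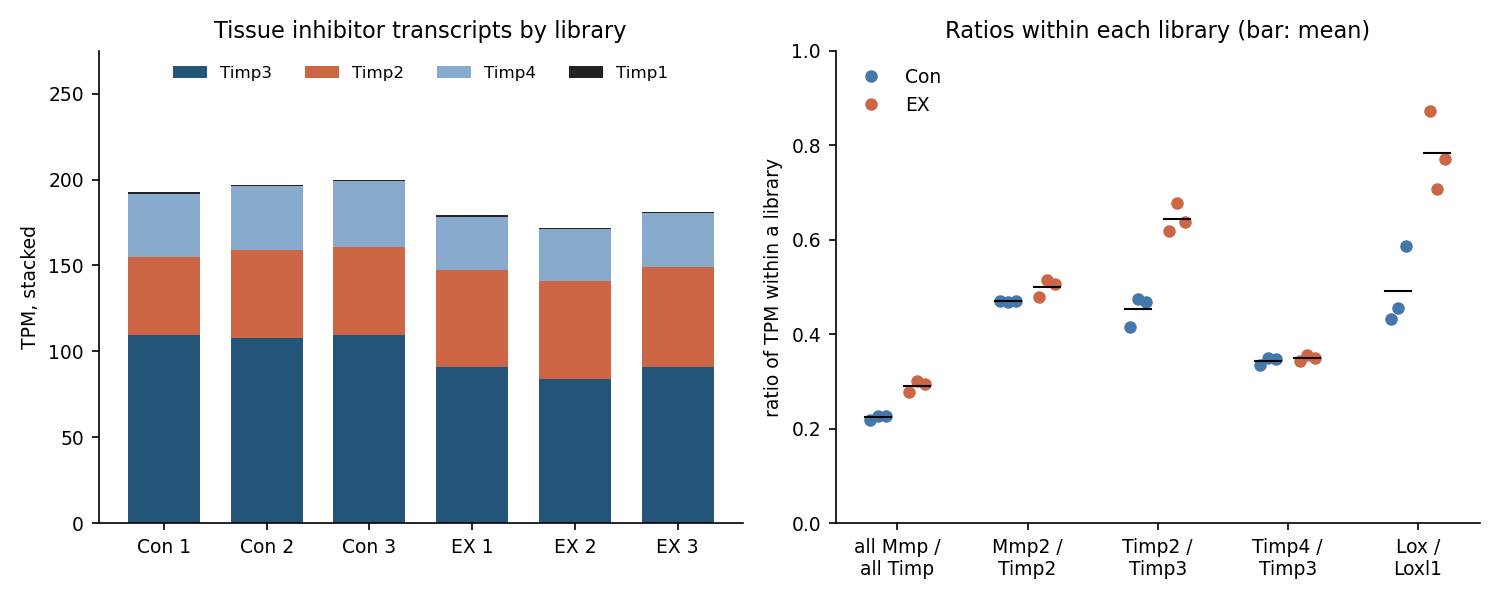
Left, TPM of the 4 TIMP genes stacked for each library; right, ratios of TPM within each library, 1 point per mouse with the group mean as a bar. Timp2 takes a larger and Timp3 a smaller part of each EX column, and the ratio of Timp2 to Timp3 lies between 0.416 and 0.475 in Con and between 0.619 and 0.677 in EX.

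Fibrillar collagen is the main substrate of MMP14 and of LOX, and the type I, III and V chains listed also rose. Col2a1, a fibrillar collagen gene among the bone and cartilage markers, lay below the expression limit and was lower. Its log2 fold change was -2.46 (adjusted p = 5.6e-07 in the fit without that limit). Col1a1, the first chain of type I collagen, had 89.4, 84.5 and 85.4 CPM in Con and 156, 158 and 157 CPM in EX, and its log2 fold change was 0.86 (SE 0.04, adjusted p = 4.8e-15). Col3a1, the chain of type III collagen, had a log2 fold change of 0.76 (SE 0.04, adjusted p = 8.3e-15), from 239.6 ± 8.50 to 406 ± 9.39 CPM. Of the 8 collagen and fibronectin genes listed, 5 were higher and 1 was lower, with a median of 0.39. Col1a2 (0.61), Col5a2 (0.41) and Col5a1 (0.37) were named after their values were seen. Col4a2, a basement membrane chain, fell by 0.16 on the log2 scale (adjusted p = 2.7e-03), while Col4a1 at -0.04 and the fibronectin gene Fn1 at -0.03 did not pass the test. Set against Col1a1 in TPM, Lox overlapped between groups, at 0.112 to 0.155 in Con and 0.101 to 0.123 in EX. Mmp2 to Col1a1 was lower in EX by 0.47 on the log2 scale (means 1.02 ± 0.0909 and 0.733 ± 0.0413), and Timp2 to Col1a1 by 0.56 (means 2.16 ± 0.197 and 1.47 ± 0.0275), each with groups apart (exact permutation p = 0.1, adjusted p = 0.15).

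Of 23 genes that modify or crosslink collagen beside Lox and Loxl1, 18 could be tested, and 2 rose and 1 fell, with a median of 0.04. Pcolce, which enhances the trimming of procollagen, rose by 0.27 on the log2 scale, from 31.3 ± 1.42 to 37.7 ± 1.92 CPM (adjusted p = 1.6e-03). Serpinh1, the collagen chaperone HSP47, had a change of 0.24 (adjusted p = 1.1e-03), from 66.9 ± 3.83 to 78.8 ± 3.80 CPM. Tgm2, a transglutaminase that forms another kind of crosslink, fell by 0.13 (adjusted p = 0.031), a call that was lost without Con replicate 1, Con replicate 2 or either of EX replicates 1 and 3, and with DESeq2. The count of 2 that rose was 1 with limma on TPM. Other lysyl oxidases did not pass the test: Loxl2 was at 0.20 (adjusted p = 0.054) and Loxl3 at 0.04, and Loxl4 was below the expression limit.

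In the elastic fibre list of 17 genes, 15 were tested and 1 rose and 2 fell, with a median of 0.02. Mfap4, a microfibril-associated protein, rose from 2.51 ± 0.514 to 4.59 ± 0.217 CPM (log2 fold change 0.88, adjusted p = 4.2e-04). Ltbp4, which anchors latent TGF-beta and elastic fibres, fell by 0.38 (adjusted p = 1.2e-07), and Fbln2, fibulin 2, by 0.25 (adjusted p = 1.7e-04). The elastin gene Eln did not pass the test, with a log2 fold change of -0.12 (adjusted p = 0.208).

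No other MMP and no ADAM or ADAMTS protease passed the test. Of 19 other MMP genes listed, 13 had a row and 2 could be tested, Mmp28 at 0.24 (adjusted p = 0.289) and Mmp11 at -0.10 (adjusted p = 0.743). Neither had an unadjusted p under 0.05, DESeq2 and limma called 0 of them too, and none of the 11 below the expression limit was called. The stromelysin gene Mmp3 had 4 to 18 counts per library and the collagenase gene Mmp13 1 or 2. The median of the 10 ADAM and ADAMTS genes tested was -0.00, and Adamts2, which trims procollagen, came closest to the threshold at 0.25 (adjusted p = 0.057). At an unadjusted p under 0.05 there were 2, Adamts2 and Adamts10, and DESeq2 and limma called 0. With 1 library left out edgeR called 1 gene higher without Con replicate 1 or EX replicate 1, and 1 lower without EX replicate 3.

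Among 17 genes that activate proteases or otherwise inhibit them, 16 had a row, 12 were tested, 3 rose and none fell, with a median of -0.01. Thbs2, thrombospondin 2, which binds MMP2 and aids its uptake by cells, rose by 0.47 (adjusted p = 1.4e-03), from 9.48 ± 1.16 to 13.1 ± 1.06 CPM. Plaur, the urokinase receptor, had 0.643 to 1.12 CPM in Con and 1.46 to 1.64 CPM in EX, and its log2 fold change was 0.79 (SE 0.27, adjusted p = 0.040). Thbs1, named after its values were seen, was at 0.24 (adjusted p = 0.045). The count of 3 dropped to 2 without Con replicate 1 or Con replicate 3 and to 1 without any other library, and DESeq2 and limma called 1. For genes that fell, the count was 1 without Con replicate 3 and with limma on TPM. Below the expression limit, Plg, the plasminogen gene, at -0.81 and Serpinf2, the antiplasmin gene, at -1.38 were lower, with adjusted p = 0.0070 and 0.0086 in the fit without that limit.

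Of 18 genes that induce or regulate the MMP and TIMP genes, 13 were tested, 3 rose and 2 fell, with a median of 0.03. Fosl2 and Jun, which encode subunits of the AP-1 transcription factor, rose by 0.79 (16.2 ± 0.662 to 28.1 ± 1.31 CPM, adjusted p = 2.3e-09) and 0.45 (127 ± 4.16 to 174 ± 2.21 CPM, adjusted p = 3.0e-09). Junb, another subunit, fell by 0.46 (adjusted p = 2.3e-04), Ets2, an ETS family factor, fell by 0.13 (adjusted p = 0.031), and Fos did not pass the test at 0.07. The count of 2 that fell held without Con replicate 1 or Con replicate 3 and dropped to 1 without any of the other libraries, as it did with DESeq2 and in the fit with the replicate number as a block. Ccn2, a matricellular TGF-beta target named after its values were seen, rose by 0.43 (adjusted p = 5.5e-04). The TGF-beta genes and receptors in the list (Tgfb1, Tgfb2, Tgfb3, Tgfbr1 and Tgfbr2) did not pass the test, with log2 fold changes from -0.16 to 0.07.

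**Figure D4:**
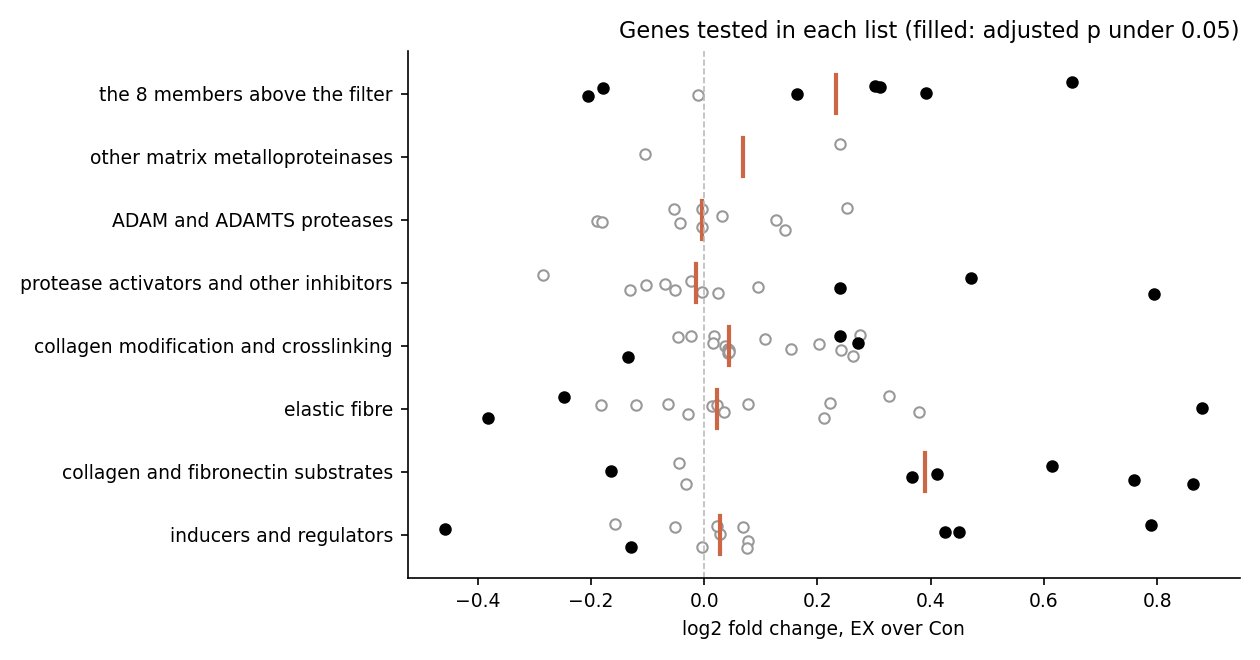
Log2 fold change of EX over Con (horizontal axis) for each gene above the expression limit, in the set described here (top) and in 7 related lists, with filled points for an adjusted p under 0.05 and a coloured line at the median. Only the collagen and fibronectin list, at 0.39, has a median above the 0.23 of the top line.

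Markers of several cell types moved with the groups, and in whole muscle more cells of a type and more RNA per cell cannot be told apart. Beside the rises of Mmp2, Mmp14, Timp2 and Lox, the 7 tendon markers summed to 176 to 192 CPM in Con and 251 to 268 CPM in EX, with 3 of 6 tested higher (Fmod, Thbs4 and Tnmd) and Scx at a log2 fold change of 0.05. The 10 macrophage markers summed to 44.0 to 48.8 CPM and 78.8 to 86.1 CPM, with 6 of 7 tested higher. The 7 fibroblast markers overlapped, at 447 to 504 CPM and 461 to 478 CPM, with 1 of 7 higher (Clec3b) and Pdgfra at -0.14 (adjusted p = 0.173). Beside the falls of Timp3 and Timp4, the 10 endothelial markers summed to 825 to 844 CPM in Con and 731 to 749.8 CPM in EX, with 5 lower and 1 higher (Cldn5). The 9 smooth muscle and pericyte markers fell from between 1371 and 1395 CPM to between 1149 and 1179 CPM, with 6 lower and 1 higher (Acta2). The Schwann cell markers also went down, from between 112 and 124 CPM to between 85.4 and 88.3 CPM, with 4 of 5 tested lower. Of the adipocyte markers, 5 of 7 tested were higher and 1 was lower, with a median log2 fold change of 1.19. Adipoq, Cfd, Cidec and Retn rose by between 1.19 and 1.55 on the log2 scale, and Plin1 (1.21) and Lep (2.92) were also called higher below the expression limit. Their sum overlapped, at 1114 to 1162 CPM and 1117 to 1118 CPM, because Plin4 (0.30 on the log2 scale), Fabp4 (-0.09) and Lpl (-0.40) made up nearly all of it. The satellite cell markers had 0 of 4 called, with sums of 41.5 to 44.6 CPM in Con and 39.7 to 41.0 CPM in EX. The muscle fibre markers, whose sums are given above, were higher in EX with 4 of 7 called higher and 0 lower. The part of these cell types in the changes was not tested.

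For Mmp9, 7 of the 10 neutrophil markers had a row and summed to 0.857 to 1.01 CPM in Con and 0.444 to 0.822 CPM in EX. The defining genes Elane, Ngp and Camp were at or near 0 in each group, with means of at most 0.0211 CPM. Bone and cartilage markers were low too and their sum was lower in EX, at 13.5 to 14.2 CPM against 9.39 to 11.1 CPM. Within that list Ibsp, Col2a1 and Clec3a were lower, while Ctsk rose from a mean of 6.04 to 8.04 CPM (adjusted p = 0.018). The mean of Acp5 went from 0.813 to 1.16 CPM with groups apart, without passing the test (adjusted p = 0.322 in the fit without an expression limit). The macrophage markers, whose sums are given above, were higher in EX, with 6 of 7 tested higher. The part of these cell types in the values of Mmp9 was not tested.

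Profiles over the 6 libraries were compared by the root mean square difference of log2 CPM after centring each gene on its mean. Within the set, Timp3 and Timp4 were the closest pair, 0.029 apart, followed by Mmp2 and Timp2, 0.055 apart. Lox stood far from Loxl1 at 0.372. Of all genes tested, the most alike were Prxl2b, Cyp2e1 and St3gal1 for Mmp2 (0.016 to 0.033), Abhd6, Rnf157 and Myorg for Mmp14 (0.019 to 0.035), and Mdfic, Rsrp1 and Ube2a for Mmp15 (0.0076 to 0.016). For Timp2 they were Nrep, Eml1 and Dipk1a (0.027 to 0.031), for Timp3 Cdc42bpa, S1pr1 and Stxbp5 (0.013 to 0.018), and for Timp4 Pdk4, Fnbp1 and Cnot6 (0.012 to 0.016). For Lox the nearest were farther off, with Pamr1, Ccdc3 and Ccl25 at 0.098 to 0.111. This measure is not scaled for fold change or counting noise, and Lox had the largest change and the fewest counts of the called members. Of the 8 genes above the expression limit, EX replicate 3 was the highest EX library for 5 and the lowest for 0, and EX replicates 1 and 2 were each the lowest for 4. Con replicate 3 was the lowest Con library for 0, and Con replicates 1 and 2 were each the lowest for 4.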

How the data were processed

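RNA was measured in hind leg muscle of 3 Con and 3 EX mice, with 1 library per mouse. The authors filtered 150 bp paired-end DNBseq reads, aligned them to the mouse genome and deposited, per gene and library, estimated counts (4.18% to 4.44% of values not whole), FPKM and TPM. Their methods name HISAT and GRCm39, while the submitters' processing notes name cutadapt, featureCounts, MultiQC and GRCm38.p6. Which made the values could not be settled, so no coordinates of the counts are given. The authors' 6 columns of group means were not used.

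Counts were rounded and tested with edgeR 4.0.16 (TMM, glmQLFit and glmQLFTest) in R 4.3.3 for genes whose FPKM averaged 1 or more over the 6 libraries, with Benjamini-Hochberg adjustment over those genes. Genes below that limit were read from the same fit without it, over 16716 genes. Ratios and shares used the deposited TPM, with two-sided exact permutation tests (scipy 1.17.1). On simulated counts for 10883 genes with 200 changed, edgeR recovered 84% of changes of 0.5 and 99.3% of changes of 1 on the log2 scale, and 5.59% of its calls were false. Smaller changes, such as those of every called member but Lox, were not simulated. The median absolute log2 fold change of the genes called in the data was 0.25. The simulated spread was estimated from these same data, so the share of false calls is not an independent check. No pair of libraries within a group agreed within sampling noise, which does not by itself show that they are separate mice. Replicates are taken as separate mice, as the series' design states 3 per group. The spread between libraries beyond counting error was small, with a common coefficient of variation of 0.033 in the edgeR fit. The adjusted p-values rest on that spread. Counts ranged from 13845362 to 16240431 per library, and intervals on counts cover counting error only.

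The members and lists were chosen with earlier results of these data known. Of each pathway list, at most the 2 largest increases and the 2 largest decreases past the threshold are named by rule, and for each member that changed, the 3 most alike genes. Other genes are named for a count or a role. Alternatives were median ratio scaling, totals without the 20 most abundant genes, DESeq2 1.42.0, limma 3.58.1 with trend on log2(FPKM + 0.1), log2(FPKM + 1) and log2(TPM + 0.1), no filter or a mean of 5 FPKM, a replicate block, leaving out each library, and for the ratio FPKM or no Mmp9.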

Additional observations from a re-analysis of the deposited data

How the results depend on the processing

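Of the 10 genes, 6 (Mmp2, Mmp9, Timp2, Timp3, Timp4 and Lox) kept their direction and their side of the threshold in every alternative in which they were tested. The log2 fold change ranged from 0.30 to 0.44 for Mmp2, 0.21 to 0.33 for Timp2, -0.30 to -0.18 for Timp3, -0.27 to -0.17 for Timp4 and 0.43 to 0.80 for Lox. Mmp14 lost its call with limma on TPM, and Mmp15 lost its call in 12 of 15 alternatives (log2 fold change 0.08 to 0.19, adjusted p 0.043 to 0.415). With 1 library left out, Timp1 ranged from -0.77 to 0.069, with the sign turned without Con replicate 1, and Loxl1 from -0.071 to 0.044, with the sign turned without Con replicate 1 (0.044) and EX replicate 1 (0.00), none of them called. The cause was not tested. DESeq2 called 1228 genes (643 higher, 585 lower) where edgeR called 1949. Limma called 411 higher on FPKM with either pseudocount, and 1037 lower with a pseudocount of 0.1 and 1032 with 1. On TPM it called 340 higher and 1684 lower. The number of the 10 genes called higher was 3 with limma on TPM and 3 with a mean of at least 5 FPKM, where Lox, Loxl1, Mmp9 and Timp1 were not tested. With 1 library left out, 1344 to 1857 genes passed (667 to 934 higher, 677 to 923 lower), as did 6 to 7 of the 10 genes (4 to 5 higher, 2 lower). The log2 difference of the summed MMP to TIMP ratio was 0.35 to 0.41 throughout. Other scales for the summed levels were chosen after seeing the data. In FPKM the summed TIMP level differed by -0.11.

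Replicate numbers showed no sign of pairing the mice (correlations of deviations between same-numbered libraries -0.08, -0.05 and -0.03, and between the others -0.03 to 0.08). Deviations were centred within each group of 3, so these correlations depend on each other and cannot exclude a pairing. With the replicate block 1782 genes passed (909 higher, 873 lower) and 6 of the 10 genes, with Mmp15 at an adjusted p of 0.063, and the ratio differed by 0.38. Of 14 list counts, 5 stayed within 1.5 times in each alternative. Fold changes of Mmp9 and Timp1 are limited by their counts.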
